A study of Mus musculus with 8 samples.

Results

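The genes of glutathione synthesis, recycling and conjugation were followed in a pair of cell populations sorted from mouse bone marrow. The set held 9 genes, chosen by symbol with earlier results of these data known: Gclc, Gclm and Gss (synthesis), Gsr (recycling), Gstm1 and Gsto1 (cytosolic transferases), and Mgst1, Mgst2 and Mgst3 (membrane-bound transferases). All 9 were among the 18790 named genes of the files, and all 9 were among the 11965 genes with enough counts to be tested. The cells came from the femoral marrow of untreated C57BL/6 mice carrying Csf1r-EGFP, a transgene in which the promoter of the macrophage growth factor receptor gene Csf1r drives green fluorescent protein (GFP). The CD11b+ population was sorted as CD11b+, F4/80+, Ly6G-, VCAM1+ and low for GFP, and the CD11b- population as CD11b-, F4/80+, VCAM1+ and positive for GFP. Both populations thus carried macrophage surface proteins, while the series title attributes the profiles to other cell types that bear pieces of macrophages. Each population had 4 biological replicates, and SmartSeq2 (a full-length cDNA protocol for small amounts of RNA) was used for the libraries. Age and sex are not in the labels used here.

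Glutathione is a small peptide of glutamate, cysteine and glycine that serves as the main soluble thiol of the cell. Glutamate-cysteine ligase, made of the catalytic subunit Gclc and the modifier subunit Gclm, joins glutamate to cysteine in the rate-limiting step, and glutathione synthetase (Gss) adds glycine. Oxidised glutathione is reduced again by glutathione reductase (Gsr) with NADPH, and transferases couple glutathione to reactive compounds or use it to reduce peroxides. Phagocytes of the granulocyte line make large amounts of oxidants on activation, and red cells depend on glutathione to protect hemoglobin and membrane.

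Depth ran from 36604660 to 47951234 counts per library for CD11b+ and from 27462607 to 35160747 for CD11b-. Levels are given in CPM, the count of a gene scaled to its library total. Resident macrophage markers, led by Apoe and Slc40a1, summed to 1764 to 2043 CPM in CD11b+ and 1391 to 1835 CPM in CD11b-, and none of the 17 was at 0 in every library of a group. The sums hid a split. By the test given below, 4 were called higher in CD11b+ (Adgre1, Csf1r, Vcam1 and Slc40a1) and 2 lower (C1qc and Fcna). The other 11, Apoe among them (707 and 740 CPM), were not called. The share called was 35.3%, beside 29.7% of all tested genes. Neutrophil granule markers (Ngp, Mpo and 11 others) summed to 131235 to 152545 CPM in CD11b+ and 651 to 6897 CPM in CD11b-, and eosinophil markers (Prg2, Epx and 7 others) to 6823 to 19563 and 71.2 to 470 CPM. Erythroid markers (Car2, Rhd and 12 others) went the other way, at 781 to 1299 CPM in CD11b+ and 34130 to 45580 CPM in CD11b-. Plasmacytoid dendritic cell markers (Spib, Bst2 and 5 others) summed to 12.7 to 21.0 CPM in CD11b+ and 91.9 to 146 CPM in CD11b-. The sums of basophil and mast cell markers (Prss34, Hdc and 9 others) overlapped, at 1869 to 4695 and 277 to 4651 CPM. Those of megakaryocyte markers (Gp9, Itga2b and 6 others) also did, at 52.3 to 94.4 and 90.4 to 142 CPM. Single genes of these lists differed. Hdc and Kit were called higher in CD11b+, at 520 and 179 against 39.1 and 71.5 CPM. Gp9 was called lower, at 1.51 against 49.0 CPM, and the other 7 and 6 tested genes of the 2 lists were not called. T and NK cell markers (Nkg7, Klrb1c and 5 others) summed to 1117 to 1539 and 169 to 346 CPM. That sum was mostly Nkg7, at 1204 against 170 CPM on average, whereas Cd3d, Cd3g and Klrb1c were called lower in CD11b+, at means of 0.450, 0.712 and 6.66 CPM against 13.8, 17.6 and 29.2 CPM. Cd79b, a B cell receptor component present in B cell progenitors, was 4.58-fold lower in CD11b+ at 59.5 ± 20.8 against 282 ± 104 CPM (SD, n = 4). Ccr9 and Klk1, of the plasmacytoid dendritic cell list, were at 0 in all CD11b+ libraries, and the mast cell protease gene Tpsb2 was at 0 in all libraries. Itgam, which encodes CD11b, was at 287 ± 48.4 against 8.31 ± 6.21 CPM (SD, n = 4), in the direction of the sort. Csf1r, whose promoter drives the GFP, went against it, at 85.2 ± 15.1 against 35.8 ± 15.6 CPM (SD, n = 4). Csf1r was thus 2.42-fold higher in CD11b+, the population sorted as low for GFP. Adgre1 and Vcam1, whose proteins were required in both sorts, were 4.10-fold and 3.84-fold higher in CD11b+. The reason for these differences was not tested. Apart from the sums and genes that overlapped, these marker levels moved with the groups and therefore with every difference below. Their part in those differences was not tested. In such bulk libraries fewer cells of a type and less RNA per cell cannot be told apart.

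The glutathione genes split in both directions between the populations. By edgeR's quasi-likelihood test with Benjamini-Hochberg adjustment over all tested genes, 5 of the 9 were higher in CD11b+ (Gsr, Gstm1, Mgst2, Mgst1 and Gsto1), 3 were lower (Mgst3, Gclm and Gclc) and Gss was not called. Over all 11965 tested genes the same test called 29.7%, with 14.6% higher and 15.0% lower. The groups did not overlap in any library for 7 of the 9 members, against 36.4% of tested genes. The same 7 members were called with at least a 4-fold difference, against 13.3% of tested genes, and 6 of them with at least an 8-fold difference, against 8.30%. The median absolute log2 fold change was 3.24 over the 9 members and 0.84 over all tested genes. Because the members were chosen with earlier results of these data known, these comparisons cannot test for an excess of differences in the set. The share called also rises with level: with genes of at least 10 CPM in 4 libraries, 3445 of 8031 were called. Without the pair of CD11b- libraries with the most transcript of the granule enzyme gene Mpo (replicates 1 and 2), the call stood at 5 higher and 3 lower as well.

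**Figure D1:**
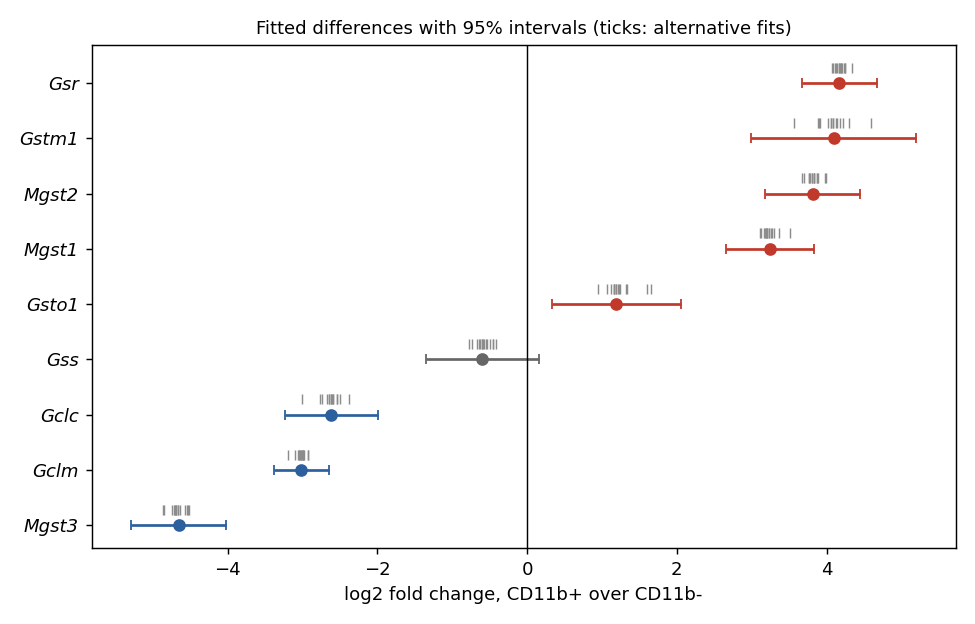
Fitted log2 fold change of each glutathione gene, CD11b+ over CD11b- (points), with its 95% interval (bars), ordered by size; grey ticks above each point are the 15 alternative fits. Red marks genes called higher in CD11b+, blue genes called lower, and grey Gss, whose interval of -1.35 to 0.15 spans 0.

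The stretch of 250 bases before the annotated start is shown for 4 members that differ strongly, Gclm and Mgst3 (lower in CD11b+) and Mgst1 and Mgst2 (higher), so that a gene pair moving each way can be set side by side. The sequences are from RefSeq on build GRCm38.p6, whereas the submitters' processing notes list mm9, and 7 of the 9 members had an entry there. Gclc and Gsr had none. Capitals mark matches to a searched motif on either strand. The motifs were TGACNNNGC (the core of the antioxidant response element bound by NRF2 with a small MAF protein), the MAF recognition element (some forms of which contain the former), TTGCNNAA (bound by C/EBP factors), AGATAA (bound by GATA factors) and GAGGAAG (an ETS-type site), which occurred in 10.2%, 0.353%, 9.56%, 9.99% and 10.6% of all 32851 such windows.
Gclm, chr3:122245307-122245556, plus strand: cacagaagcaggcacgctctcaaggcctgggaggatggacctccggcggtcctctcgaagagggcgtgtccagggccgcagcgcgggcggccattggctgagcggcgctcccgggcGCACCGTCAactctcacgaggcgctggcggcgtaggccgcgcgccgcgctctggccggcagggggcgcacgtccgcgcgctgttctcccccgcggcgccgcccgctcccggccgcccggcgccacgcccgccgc
Mgst3, chr1:167393842-167394091, minus strand: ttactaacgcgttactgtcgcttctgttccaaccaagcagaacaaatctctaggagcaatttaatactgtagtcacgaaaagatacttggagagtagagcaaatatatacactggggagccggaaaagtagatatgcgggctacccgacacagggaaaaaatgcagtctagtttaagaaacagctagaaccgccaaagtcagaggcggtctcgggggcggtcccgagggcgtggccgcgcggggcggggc
Mgst1 (the upstream one of its annotated starts), chr6:138140277-138140526, plus strand: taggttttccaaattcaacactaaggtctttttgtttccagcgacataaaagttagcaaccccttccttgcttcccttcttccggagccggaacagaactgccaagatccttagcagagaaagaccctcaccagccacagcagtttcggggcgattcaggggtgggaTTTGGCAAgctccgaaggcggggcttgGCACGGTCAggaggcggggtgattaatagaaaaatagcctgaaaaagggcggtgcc
Mgst2, chr3:51660929-51661178, plus strand: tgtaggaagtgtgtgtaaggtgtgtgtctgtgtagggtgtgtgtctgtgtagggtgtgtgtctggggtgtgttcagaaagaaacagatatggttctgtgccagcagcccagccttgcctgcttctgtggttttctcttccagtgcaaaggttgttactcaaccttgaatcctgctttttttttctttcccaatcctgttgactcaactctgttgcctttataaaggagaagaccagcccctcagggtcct
The antioxidant response letters were present in Gclm, 134 to 126 bases before the start, and in Mgst1, 56 to 48 bases before it, so they occurred in 1 gene that was lower in CD11b+ and 1 that was higher. The match to TTGCNNAA in Mgst1 lay 83 to 76 bases before the start. None of the 5 motifs was found in the Mgst3 and Mgst2 windows. The Gclm window was 78.4% G or C, against 51.6% for Mgst3, 52% for Mgst1 and 47.6% for Mgst2. Such matches describe letters and are not evidence of binding.

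Both subunits of the rate-limiting ligase were lower in CD11b+, while the synthetase was not called. Gclc, the catalytic subunit, was at 82.8, 69.0, 79.2 and 94.6 CPM in CD11b+ replicates 1 to 4, against 352, 355, 682 and 636 CPM in CD11b- replicates 1 to 4. All CD11b- libraries lay above all CD11b+ libraries, and within CD11b- replicates 3 and 4 were higher than replicates 1 and 2. The fitted difference was 6.12-fold lower in CD11b+ (log2 -2.61, SE 0.28, edgeR adjusted p = 7.59e-05). Gclm, the modifier subunit that makes the ligase more efficient, stood at 99.5, 103, 92.9 and 97.4 CPM across the CD11b+ replicates, against 683, 746, 870 and 956 CPM across the CD11b- ones. It was the steadiest member in CD11b+, with a highest library only 1.11 times the lowest, and was 8.08-fold lower there than in CD11b- (log2 -3.01, SE 0.16, edgeR adjusted p = 2.23e-06). Gss, which completes the peptide, stood at 17.7, 18.8, 21.3 and 28.1 CPM across the CD11b+ replicates, against 47.0, 27.2, 38.8 and 19.9 CPM across the CD11b- ones. Its groups overlapped, because CD11b- replicates 2 and 4 lay below the highest CD11b+ library. The fitted log2 difference of Gss was -0.60 (95% interval -1.35 to 0.15, edgeR adjusted p = 0.227), which leaves room for a difference of more than 2-fold. In the GENCODE M21 annotation the exons of Gss share 395, 322 and 385 bases with Acss2, Gssos1 and Gssos2 on the other strand, and those of Gclm share 296 bases with Gm17494 on the other strand and 244 bases with Gm6061. SmartSeq2 does not mark strand, so reads in such stretches cannot be assigned. Acss2 itself stood at a mean of 16.7 CPM (CD11b+) and 21.0 CPM (CD11b-).

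**Figure D2:**
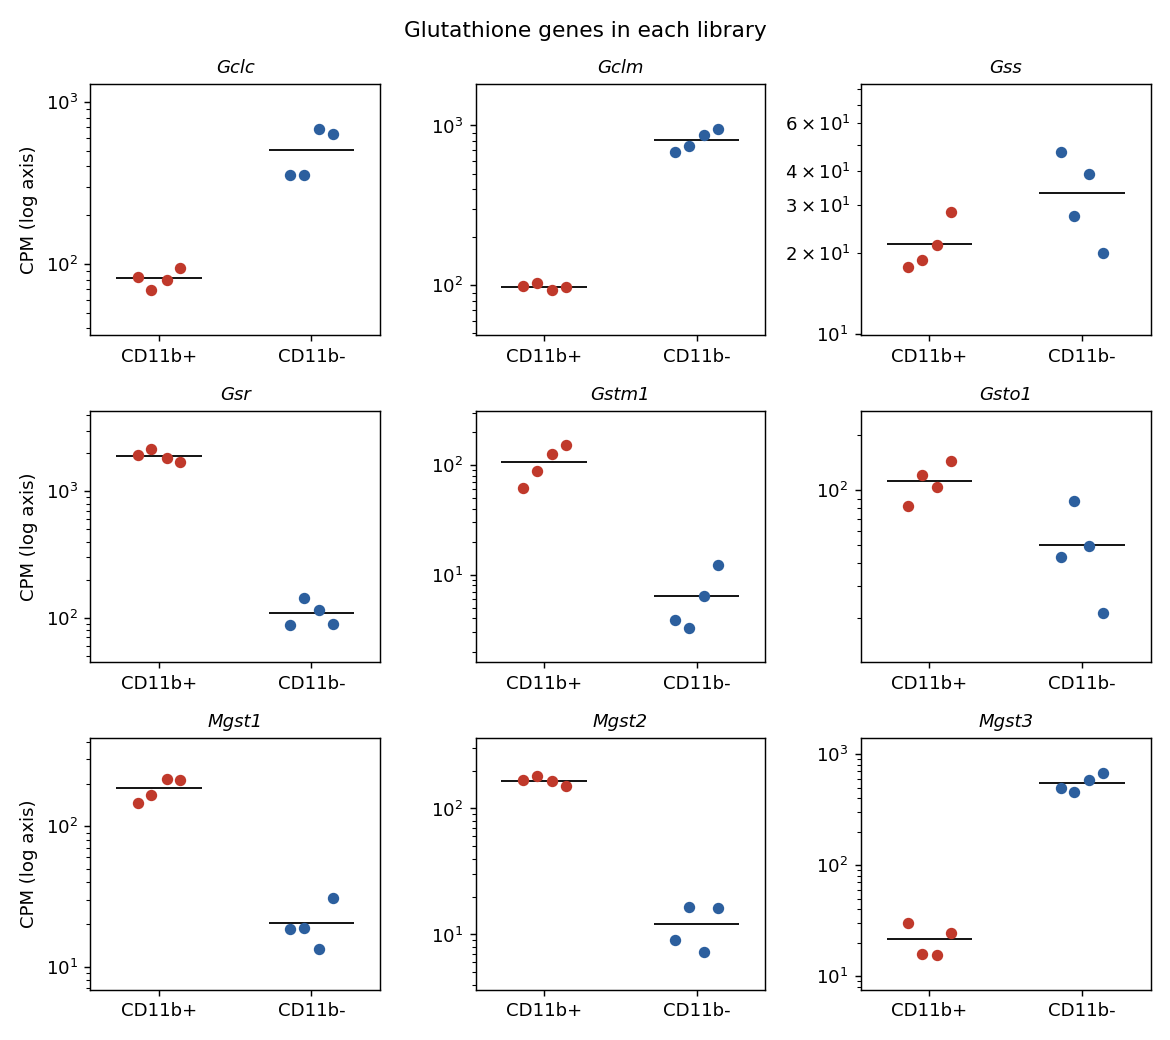
CPM of each glutathione gene on log axes, 1 panel per gene with its own range; points are libraries (replicates 1 to 4 from left to right, red CD11b+, blue CD11b-) and black lines group means. The groups overlap in the panels of Gss and Gsto1 and in no other.

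The CD11b- replicates 1 and 2, which were lowest in Gclc, were the highest in Mpo, at 5803 and 3948 CPM against 1449 and 412 CPM in replicates 3 and 4. The early granule genes Elane, Prtn3 and Ctsg had the same order over the CD11b- libraries as Mpo. Ngp, Camp, Ltf, S100a8 and S100a9 were highest in CD11b- replicate 3 (Ngp at 121, 90.2, 532 and 132 CPM in replicates 1 to 4), whereas Cd177 was highest in replicate 4 (4.14, 0.085, 5.29 and 6.08 CPM). Replicates 1 and 2 were not highest in neutrophil genes alone. Basophil and mast cell markers summed to 4651, 2588, 549 and 277 CPM over CD11b- replicates 1 to 4, and eosinophil markers to 470, 329, 71.2 and 82.4 CPM. The neutrophil genes here other than Mpo and Ngp, and these sums by replicate, were picked after their values were seen. So were Cd3d, Cd3g, Kit, C1qc and Fcna above. Replicates 1 and 2 were also lowest in Car2, a carbonic anhydrase gene of red cell precursors, at 11289 and 9572 CPM against 15453 and 15590 CPM. Without that pair the difference was 8.03-fold for Gclc, 9.16-fold for Gclm and 29.2-fold for Mgst3, all lower in CD11b+ (edgeR adjusted p = 3.56e-05, 1.93e-05 and 4.79e-05). For the genes higher in CD11b+ the difference without the pair was 18.9-fold for Gsr, 11.8-fold for Gstm1, 14.7-fold for Mgst2, 8.66-fold for Mgst1 and 3.15-fold for Gsto1. The part of these markers in the spread of Gclc was not tested.

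Because the ligase is a dimer of Gclc and Gclm, the ratio of their transcripts was taken within each library, where library scaling cancels. Gclm over Gclc in CPM was 1.20, 1.50, 1.17 and 1.03 in CD11b+ and 1.94, 2.10, 1.28 and 1.50 in CD11b-. The ratio in CD11b- replicate 3 lay within the range of CD11b+, and CD11b- replicates 1 and 2 had the highest ratios. The mean was 1.23 ± 0.195 in CD11b+ and 1.71 ± 0.382 in CD11b- (SD, n = 4 each), 1.38 times higher in CD11b- on the log scale. This did not pass a two-sided exact permutation test (p = 0.0571, where the smallest p this design allows is 0.0286). Divided by exon length, the mean ratio was 0.734 in CD11b+ and 1.02 in CD11b-.

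**Figure D3:**
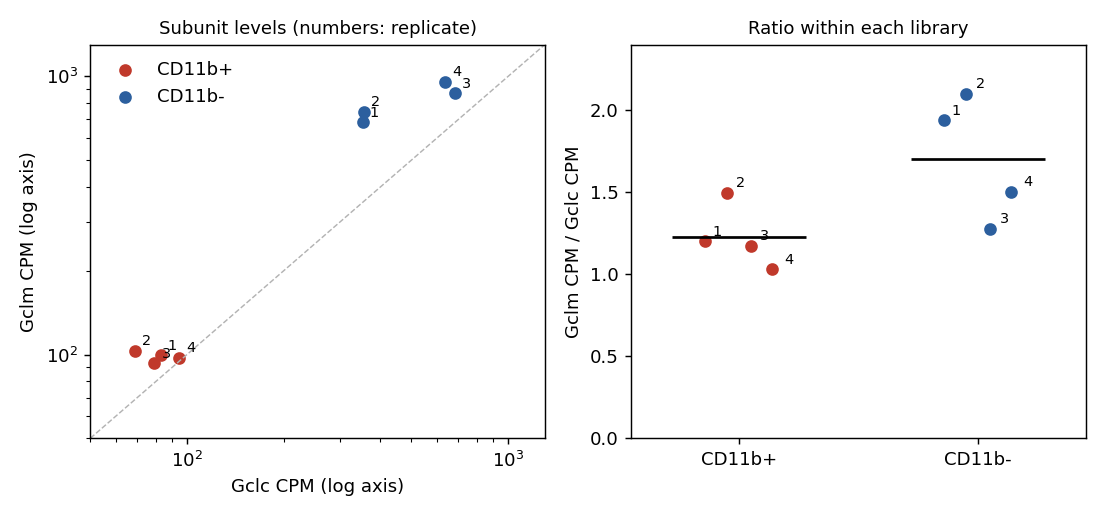
Left, Gclm against Gclc in CPM on log axes, with libraries numbered by replicate and the dashed line at equal CPM; all 8 libraries lie above it. Right, the ratio of Gclm to Gclc CPM in each library with group means (black lines, 1.23 in CD11b+ and 1.71 in CD11b-); CD11b- replicate 3 falls among the CD11b+ libraries.

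Glutathione reductase had by far the highest level among the members in CD11b+. Gsr stood at 1936, 2168, 1840 and 1717 CPM across the CD11b+ replicates, against 88.5, 143, 114 and 89.5 CPM across the CD11b- ones. The lowest CD11b+ library was thus far above the highest CD11b- library, and the replicates of each population lay close together. Gsr was 18.0-fold higher in CD11b+ (log2 4.17, SE 0.22, 95% interval 3.67 to 4.67, edgeR adjusted p = 2.23e-06). By CPM it held ranks 24 to 33 of all named genes for CD11b+ and ranks 1447 to 2369 for CD11b-. Gsr supplied 65.4% to 73.9% of the summed CPM of the 9 members in CD11b+ and 3.63% to 7.74% in CD11b-. The sum over the 9 members was 2711 ± 149 CPM for CD11b+ against 2108 ± 364 CPM for CD11b-, and the other 8 without Gsr summed to 796 ± 91.8 and 1999 ± 371 CPM (SD, n = 4). Which group had the larger total therefore turned on this 1 gene.

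Of the cytosolic transferases, Gstm1 differed strongly and Gsto1 weakly. Gstm1, a mu-class enzyme that conjugates glutathione to electrophiles, stood at 62.5, 89.3, 127 and 152 CPM across the CD11b+ replicates, against 3.86, 3.27, 6.36 and 12.3 CPM across the CD11b- ones. The groups did not overlap, but the highest library was 2.43 times the lowest in CD11b+ and 3.76 times in CD11b-. Gstm1 was 17.1-fold higher in CD11b+ (log2 4.10, SE 0.49, edgeR adjusted p = 0.000168). Counts of Gstm1 are uncertain to the extent that reads were shared with the closely similar mu-class genes. Gsto1, an omega-class enzyme that reduces dehydroascorbate and mixed disulfides, stood at 81.9, 121, 104 and 145 CPM across the CD11b+ replicates, against 43.2, 87.5, 49.6 and 21.5 CPM across the CD11b- ones. CD11b- replicate 2 lay above CD11b+ replicate 1, and the CD11b- libraries spanned 4.06 times, the widest range of any member. Gsto1 was 2.28-fold higher in CD11b+ (log2 1.19, 95% interval 0.33 to 2.05, edgeR adjusted p = 0.0408). That call was lost with any of CD11b+ replicates 2, 3 and 4 or CD11b- replicates 1 and 3 left out (edgeR adjusted p = 0.0842, 0.0676, 0.101, 0.0933 and 0.0725), and adjusted p ran from 0.00806 to 0.101 over all 15 alternatives.

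The membrane-bound transferases changed in opposite directions. Mgst1, an enzyme of the endoplasmic reticulum and mitochondrial outer membrane that conjugates glutathione and reduces lipid peroxides, stood at 147, 167, 218 and 216 CPM across the CD11b+ replicates, against 18.6, 18.8, 13.4 and 31.0 CPM across the CD11b- ones. All CD11b+ libraries were higher, and the difference was 9.46-fold (log2 3.24, SE 0.26, edgeR adjusted p = 1.56e-05). Mgst2, which can also make leukotriene C4, stood at 169, 182, 165 and 150 CPM across the CD11b+ replicates, against 9.12, 16.4, 7.28 and 16.1 CPM across the CD11b- ones. The CD11b+ libraries of Mgst2 were close together, with a highest 1.21 times the lowest, and the gene was 14.1-fold higher there (log2 3.82, SE 0.28, edgeR adjusted p = 9.4e-06). Mgst3, a related membrane transferase and peroxidase, stood at 30.0, 15.8, 15.5 and 24.7 CPM across the CD11b+ replicates, against 498, 453, 591 and 683 CPM across the CD11b- ones. Here the CD11b- libraries were all higher, and Mgst3 was 25.2-fold lower in CD11b+, the largest difference among the 9 members (log2 -4.66, SE 0.28, edgeR adjusted p = 3.58e-06).

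The ranks, shares and ratios in CPM above are of counts and depend on gene length. To put the levels of different genes in order, CPM was divided by exon length in kilobases (kb), taken from GENCODE M21. On that scale Mgst1 made up 58.6% ± 6.75 of the transcripts of Mgst1, Mgst2 and Mgst3 together in CD11b+ and 1.95% ± 0.515 in CD11b-. Mgst2 made up 28.8% ± 4.40 and 0.650% ± 0.288. Mgst3 made up 12.6% ± 4.57 in CD11b+ and 97.4% ± 0.746 in CD11b- (SD, n = 4). The predominant gene was Mgst1 in every CD11b+ library and Mgst3 in every CD11b- library. The 3 genes together summed to 157 ± 13.1 CPM per kb for CD11b+ against 521 ± 95.4 CPM per kb for CD11b-.

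**Figure D4:**
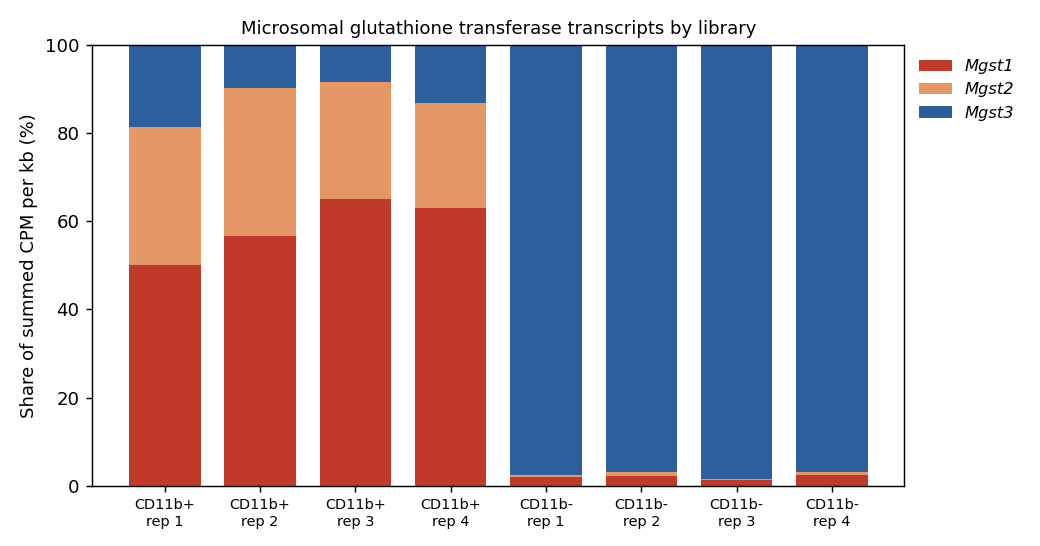
Share of Mgst1, Mgst2 and Mgst3 in their summed CPM per kb of exon, in percent, 1 bar per library. Mgst3 takes 8.48% to 18.7% of each CD11b+ bar and 96.8% to 98.4% of each CD11b- bar.

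The order of the 9 levels per exon length also differed between the populations. In CD11b+ Gsr led at 695 ± 69.3 CPM per kb, above the range of every other member. Mgst1 (92.8 ± 17.8), Gstm1 (73.0 ± 26.9), Gsto1 (55.8 ± 13.1) and Mgst2 (44.9 ± 3.53 CPM per kb) followed, each overlapping with the next. Gclc (21.6 ± 2.81), Mgst3 (19.6 ± 6.44) and Gclm (15.6 ± 0.678 CPM per kb) formed a lower group, again with overlap from each to the next, and Gss was lowest at 3.63 ± 0.791 CPM per kb. In CD11b- Mgst3 led at 507 ± 93.0 CPM per kb, apart from all others. Gclc and Gclm came next at 134 ± 47.1 and 129 ± 19.5 CPM per kb and overlapped with each other but with no gene below them. From Gsr (39.5 ± 9.38) over Gsto1 (24.9 ± 13.6), Mgst1 (10.2 ± 3.71), Gss (5.62 ± 2.03) and Gstm1 (4.38 ± 2.80) to Mgst2 (3.30 ± 1.27 CPM per kb), each neighbour overlapped with the next (SD, n = 4). Exon length is that of all annotated exons joined, from 1097 bases for Mgst3 to 6291 bases for Gclm, so any gene with exons not used in these cells would be understated. Which exons were used was not analysed here.

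Genes with the most similar pattern over the 8 libraries were found by the root mean square (RMS) difference of log2(CPM + 1) profiles, each centred on its own mean, for the 7 members with at least a 4-fold difference. Nearest to Gclc were Glul, the glutamine synthetase gene (RMS 0.142), Cyb5a (0.156) and Rnf139 (0.159). Nearest to Gclm were Cd82 (0.102), Rbm38 (0.117) and Fzr1 (0.123), and nearest to Mgst3 were Ubac1 (0.165), Prdx2, a peroxiredoxin abundant in red cells (0.202), and Gypc, a red cell membrane glycoprotein gene (0.220). Nearest to Gsr were C5ar2, a complement C5a receptor gene (0.181), Gm14005 (0.207) and Pilra (0.230). Nearest to Mgst1 were Tmsb4x (0.205), Rnd1 (0.237) and Chst12 (0.247), and nearest to Mgst2 were Chst12 (0.226), Ralb (0.247) and Gpi1, a glycolytic isomerase gene (0.298). Gstm1 had the least close neighbours, Apobr (0.359), Plin3 (0.395) and Itgb2, the leukocyte integrin beta chain gene (0.451). Likeness of this kind rests largely on the difference between the populations, which all these profiles share.

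The wider glutathione system was followed with 7 lists of related genes, 78 of which could be tested. Of these 15 were higher in CD11b+, 23 were lower and 40 were not called, so 48.7% were called against the 29.7% of all tested genes. The lists, too, were chosen with earlier results known, so these shares cannot test for an excess. The median log2 fold change over all tested genes was -0.01. Each list is given by these counts and its own median.

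Among other transferases, 1 of 11 tested genes rose, 3 fell and 7 did not pass the test, with a median log2 fold change of 0.09. The share called was 36.4%, near the 29.7% of all tested genes. Gstt1, a theta-class enzyme present in red cells, was 50.5-fold lower in CD11b+ at 2.15 ± 1.28 against 111 ± 47.2 CPM (edgeR adjusted p = 6.55e-05). Gstp1, the pi-class enzyme, was 1.67-fold lower at 43.8 ± 6.34 against 75.1 ± 5.85 CPM (edgeR adjusted p = 0.011). Gstm4, of the same mu class as Gstm1, was 9.55-fold higher at 53.8 ± 10.4 against 5.95 ± 5.49 CPM (SD, n = 4), barely past the threshold (edgeR adjusted p = 0.0488). The Gstm4 call was lost with library totals alone for scaling (adjusted p = 0.0564) and with any library other than CD11b- replicates 1 and 3 left out (up to 0.102), and its fold was 14.6 without CD11b- replicate 1 and 37.3 without CD11b- replicates 1 and 2.

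Of 10 tested genes that supply the amino acids of glutathione, 4 were lower in CD11b+, 1 was higher and 5 were not called (median log2 -0.29), beside 15.0% lower and 14.6% higher over all tested genes. Slc1a5, a transporter of glutamine, was 6.40-fold lower in CD11b+ at 112 ± 15.0 against 738 ± 234 CPM (edgeR adjusted p = 2.42e-05). Slc3a2, the heavy chain shared by the cystine transporter and other amino acid transporters, was 6.26-fold lower at 66.5 ± 9.11 against 426 ± 41.6 CPM (edgeR adjusted p = 4e-06). Slc7a11, the light chain of the cystine transporter, went the other way but at a low level, with a mean of 4.76 ± 2.27 CPM for CD11b+ against 0.0653 ± 0.0075 CPM for CD11b- (SD, n = 4). It had 2 counts in each CD11b- library and was 71.7-fold higher in CD11b+ (edgeR adjusted p = 0.00129).

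Of 14 tested genes of glutathione breakdown and export, 3 were higher, 2 were lower and 9 were not called (median log2 1.54). The share called was 35.7%, near the 29.7% of all tested genes. Abcg2, an exporter of the ABC family known for porphyrin efflux from red cell precursors, was 21.0-fold lower in CD11b+ at 32.3 ± 15.8 against 699 ± 86.4 CPM (edgeR adjusted p = 1.64e-05). Abcc5, an exporter of conjugates and nucleotides, was 4.72-fold higher at 440 ± 119 against 95.1 ± 31.9 CPM (edgeR adjusted p = 0.000624). Abcc2, a conjugate exporter, was at 7.57 ± 8.33 against 0.234 ± 0.310 CPM (SD, n = 4), with 712 of its 1156 pooled CD11b+ counts in replicate 1. Its 34.3-fold difference passed narrowly (edgeR adjusted p = 0.0493). The Abcc2 call was lost under 12 of 14 alternatives (adjusted p from 0.0014 to 0.171 over all), among them every library left out singly except CD11b- replicate 4, and its fold was 16.5 without CD11b+ replicate 1 and 85.9 without CD11b- replicate 4.

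Enzymes that use glutathione in redox reactions moved both ways, with 3 of 13 tested genes higher, 5 lower and 5 not called (median log2 -0.24). The share called was 61.5%, against 29.7% of all tested genes. Gpx1, the main cytosolic glutathione peroxidase, was 3.96-fold lower in CD11b+ at 1374 ± 255 against 5564 ± 1229 CPM (edgeR adjusted p = 9.21e-05). Glrx5, a mitochondrial glutaredoxin of iron-sulfur cluster assembly that red cell precursors need for heme synthesis, was 15.5-fold lower at 222 ± 49.1 against 3516 ± 357 CPM (edgeR adjusted p = 2.31e-06). Gpx3, the secreted glutathione peroxidase, had a mean of 78.0 ± 11.8 CPM for CD11b+ against 0.0615 ± 0.123 CPM for CD11b- (SD, n = 4), a fitted 1164-fold difference (edgeR adjusted p = 3.63e-05). All 8 of its CD11b- counts were in replicate 3. The other 3 CD11b- libraries had none, so without replicate 3 the difference could only be set against a floor of 3 counts over those 3 libraries pooled (at least 2371-fold higher in CD11b+), which is no bound for the whole group. The fitted fold rests on the 8 counts and was 583 without CD11b- replicates 1 and 2.

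Genes of NADPH supply, which Gsr draws on, included 6 of 11 tested that were higher in CD11b+, 1 that was lower and 4 not called (median log2 0.72). The share called was 63.6%, against 29.7% of all tested genes. G6pdx, the first enzyme of the pentose phosphate pathway, was 7.82-fold higher at 479 ± 64.3 against 62.9 ± 25.1 CPM (edgeR adjusted p = 6.42e-05). Pgd, a later NADPH-producing enzyme of that pathway, was 12.7-fold higher at 233 ± 22.6 against 18.8 ± 9.64 CPM (edgeR adjusted p = 8.12e-05). Me2, the mitochondrial malic enzyme, was 1.65-fold higher at 431 ± 71.3 against 269 ± 92.2 CPM (SD, n = 4), with an edgeR adjusted p of 0.0329. Mthfd2, of mitochondrial folate metabolism, was 1.60-fold lower at 83.3 ± 14.4 against 137 ± 26.7 CPM, with an edgeR adjusted p of 0.0207. The Me2 call was lost without CD11b+ replicate 3 or 4 or CD11b- replicate 1, 2 or 3, without CD11b- replicates 1 and 2 together and with library totals alone (edgeR adjusted p from 0.00196 to 0.210 over 15 alternatives). The Mthfd2 call was lost without CD11b+ replicate 1, 2 or 4 or CD11b- replicate 1 or 2, and without that CD11b- pair (edgeR adjusted p from 0.00403 to 0.182).

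NRF2 is the factor that induces many glutathione genes, and the list of its regulators and well known targets had 8 of 16 tested genes lower in CD11b+, 0 higher and 8 not called (median log2 -1.08). Thus 50% were called, against 29.7% of all tested genes. The list mixed regulators such as Bach2 with targets, and it left out NRF2 targets counted elsewhere. Among those, Gsr, Gstm1, Slc7a11, G6pdx and Pgd were higher in CD11b+, and Gclc and Gclm were lower. The count is therefore no measure of NRF2 activity. Fth1 and Ftl1, the ferritin chains, were 7.14-fold and 2.36-fold lower, at 318 ± 58.2 against 2326 ± 633 CPM and 699 ± 102 against 1689 ± 174 CPM (edgeR adjusted p = 1.3e-05 and 0.000236). Bach2, a repressor that acts in B cells and binds MAF elements, was 140-fold lower in CD11b+ at 0.324 ± 0.246 against 47.4 ± 24.0 CPM (SD, n = 4, edgeR adjusted p = 7.13e-05). NRF2's own gene Nfe2l2 was at 132 ± 19.5 and 99.6 ± 22.7 CPM and its inhibitor Keap1 at 81.5 ± 12.9 and 84.6 ± 37.3 CPM, neither called (edgeR adjusted p = 0.0978 and 0.992). These last 2 genes were named after their values were seen.

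Of the 3 relatives of the Mgst genes in the MAPEG family of membrane proteins, 1 was higher in CD11b+ and 2 were not called (median log2 3.87). The share called was 33.3%, near the 29.7% of all tested genes. Alox5ap, which presents arachidonate for leukotriene synthesis, was 20.4-fold higher at 768 ± 113 against 38.6 ± 22.6 CPM (edgeR adjusted p = 0.000153; 31.7-fold without CD11b- replicates 1 and 2). Ptges, the prostaglandin E synthase, was at 6.69 ± 3.63 and 0.491 ± 0.982 CPM (SD, n = 4) and was not called (edgeR adjusted p = 0.178). It was called higher without CD11b- replicate 1 (edgeR adjusted p = 0.00353) or without that replicate and replicate 2 (adjusted p = 0.00705).

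**Figure D5:**
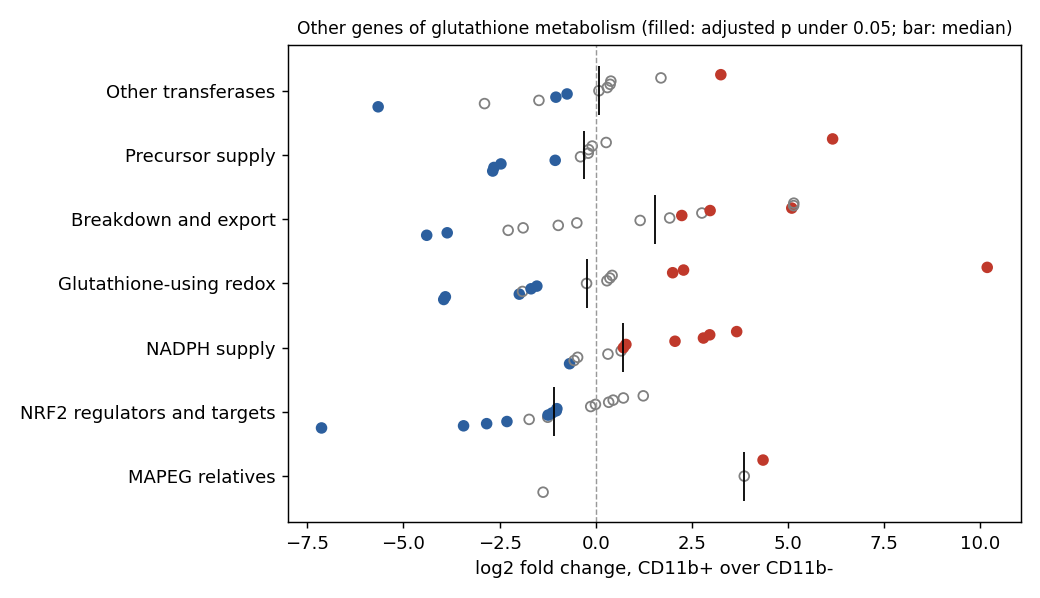
log2 fold change, CD11b+ over CD11b-, of the 78 tested genes in the 7 lists, 1 point per gene; red and blue filled points were called higher and lower, open points were not called, and black bars are list medians. The NRF2 row has 8 filled points, all to the left of 0, and the NADPH row 6 filled points to the right and 1 to the left.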

How the data were processed

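The deposited per-library files hold whole-number counts per gene symbol, although their names say FPKM, and the authors also deposited CPM (counts scaled to the library total), which those counts gave back to within 0.0005. Per the submitters' processing notes, which state neither role nor order, the tools included TopHat2, HTSeq 0.10.0 and DESeq2, and the build was mm9. How multiply mapped reads, strand and gene models were handled is not given in the sources used here. Of 18817 rows, 27 carry numbers for names and held 0.205% to 0.514% of counts. They were left out of tests.

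Levels are the authors' CPM. Tests used edgeR 4.0.16 in R 4.3.3 on counts of 4 against 4 libraries, with TMM scaling, filterByExpr (minimum count 10, minimum total 15), no covariate, and adjustment over 11965 genes at 0.05. SEs and 95% intervals were derived from the quasi-likelihood F and the fold change. The fit was run on simulated data in which few genes differed, so the large difference in RNA composition between these groups was not covered. A count of 0 in a library allows up to 0.0626 to 0.109 CPM (3 counts), counting error only. Exon lengths are from GENCODE M21.

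The members and lists were chosen with earlier results of these data known. Named were all members, genes of the sort, and the 2 most abundant genes and the most changed called gene each way per list. Also named were the 3 nearest profiles per member changed at least 4-fold. The result of 1 marker list as a whole is not reported here.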

Additional observations from a re-analysis of the deposited data

How the results depend on the processing

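Alternatives were DESeq2 1.42.0, RLE size factors, library totals only, keeping every gene, keeping genes with 10 CPM in 4 libraries, the replicate block, each library left out in turn and, chosen after seeing the data, CD11b- replicates 1 and 2 left out together. The number of called genes was 3549 and ran from 3035 to 4745. Under all 15 alternatives 3 members were lower, and 4 or 5 were higher, the difference being Gsto1. Gss was called under none of them. Whether same-numbered libraries were paired is not known. Their deviations from the group means correlated at 0.0041 to 0.0442, and 1 of the 4 CD11b+ libraries correlated best with its own number. Between populations this different, low correlations cannot exclude a shared origin. With the replicate block 3195 genes were called and Gsto1 was not (log2 1.31, edgeR adjusted p = 0.0534), nor were Gstm4 (16.5-fold, adjusted p = 0.0921) and Abcc2 (84.6-fold, adjusted p = 0.0728); it changed the call of no other named member or list gene. The log2 difference of the Gclm to Gclc ratio was -0.46 and ranged from -0.59 to -0.35 with 1 library left out, where 4 against 3 libraries cannot give a p below 0.0571. Paired by replicate number it was -0.46 with p = 0.125, the smallest an exact sign-flip test of 4 pairs allows.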
